A study of Rattus norvegicus with 172 samples.

Results

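Livers of 8 male Fischer F344 rats dosed with 3-methylfuran at 0.075 mg/kg body weight per day for 90 days (Diet B in the labels) were set against livers of the 8 control rats of the same experiment. The 16 rats were chosen by treatment label and rat number, and are 16 of the 70 rats in the series. Rats of the same experiment at 0.02 and at 1.0 mg/kg (8 each) entered the same fit, and are used where values at the neighbouring doses are given. A separate experiment with furan, from which 8 rats at 0.12 mg/kg and 8 control rats are used, had its own library kit. The labels describe the controls of both experiments alike, give no age, and do not state the hour at which tissue was taken. Whole liver was sequenced, so fewer cells of a type and less RNA per cell cannot be told apart.

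3-Methylfuran is a methylated form of furan, a heat-formed food contaminant that the hepatocyte P450 Cyp2e1 can oxidise to a reactive aldehyde. The liver also runs a strong circadian clock, in which the activators Clock, Npas2 and Arntl drive the Per, Cry and Nr1d genes, whose products feed back on them. Feeding, insulin and glucocorticoid hormone act on many of the same metabolic genes, so clock and metabolic transcripts of the liver change across the day even in untreated animals.

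Libraries of the dosed rats were deeper. They held 13.2 to 50 M counts per dosed rat (median 24.2) and 11.1 to 18.9 M per control rat (median 14.2; exact permutation test, two-sided, p = 0.0157, adjusted p = 0.0746 over 19 library measures). In 5 dosed rats the total was above that of the deepest control, and 3 dosed rats lay within the control range. Between 15632 and 17541 genes had a count per dosed rat, against 15267 to 15991 per control rat (exact permutation p = 0.00466, adjusted p = 0.0403). After every library was thinned to 11.1 M counts, the ranges were 15115 to 15429 genes in dosed rats and 15063 to 15337 in controls (exact permutation p = 0.398). Hepatocyte markers took 213000 to 242000 CPM (counts scaled to library size and TMM factor) in dosed livers and 220000 to 246000 CPM in control livers, as a liver sample would. Their sum gave an exact permutation p of 0.0592 (adjusted p = 0.187). Summed levels of macrophage, stellate cell, T and NK cell, B cell, neutrophil, endothelial, red cell and acinar cell markers gave adjusted p-values of at least 0.489 (exact permutation tests). The bile duct sum (adjusted p = 0.0403) and the adipocyte sum (adjusted p = 0.00885) differed by the same test and are described further on.

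**Figure D1:**
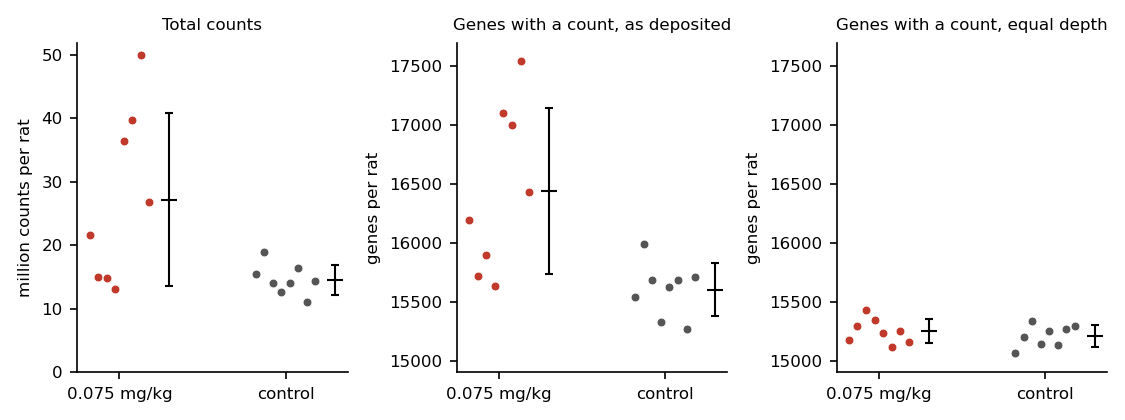
Depth of the livers dosed at 0.075 mg/kg (left in each panel) and of the controls: total counts (M), genes with a count as deposited, and genes with a count after thinning to 11.1 M; points are rats, bars mean and SD (n = 8 each). The dosed rats reach 50 M counts against 18.9 M in the deepest control, and the gap in detected genes closes at equal depth.

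Few genes were called, and the differences of most called genes were modest. Of 11930 genes tested, 163 were called at an adjusted p under 0.05 (1.37%) by edgeR's quasi-likelihood test with Benjamini-Hochberg adjustment. Of these, 52 were higher in dosed livers (0.436% of genes tested) and 111 lower (0.93%). Their median size of change was 0.45 on the log2 scale, 53 reached 1.5-fold (16 higher, 37 lower) and 14 reached 2-fold. For 154 of the 163 genes, no dosed rat crossed the mean of the controls. These genes were called for a difference between the same rats, and the share over all genes was not counted. The 154 are therefore no separate result. The groups did not overlap at all for 28 called genes (11 higher, 17 lower), beside 34 of all genes tested (0.285%). At an unadjusted p under 0.05 there were 1597 genes (13.4%). The authors' deposited table listed 268 genes at an adjusted p under 0.05 for this dose (89 higher, 179 lower). Of these, 162 were shared with the 163 here, which is 60.4% of the authors' list and 99.4% of the present one.

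The count differed between fits that handled depth in different ways. At least 162 of the 163 genes kept their direction in these fits. The fits reuse the rats in which the 163 were called, so a kept direction adds no separate support. Thinned to equal depth, the libraries gave 138 calls (43 higher, 95 lower), 124 of them shared with the 163. With the log2 library total as a covariate, 20 genes were called (5 higher, 15 lower), 19 of them shared. Without the 5 dosed rats deeper than any control, 7 genes were called (3 higher, 4 lower), all among the 163. That fit kept 3 dosed rats, so the loss of rats and the change in depth cannot be told apart in it. The same limit holds for the list counts given further on without those 5 rats. In the 3 dosed rats within the control depth, which were part of the fit, each of the 163 genes differed from the control mean in the direction seen for the whole group. For 154 of them no dosed rat crossed the control mean, so that outcome was fixed in advance and adds no support. The median size of the log2 ratio was 0.43 in those 3 rats. The split between directions depended on scaling, since library totals alone gave 79 higher and 67 lower calls (54.1% higher, against 31.9% with TMM). Genes in the lowest of 4 equal bins by level gave 9 higher and 7 lower calls, and those in the highest bin 9 higher and 46 lower. The share of all genes above zero fell across the 4 bins from low to high level (57.9%, 54.7%, 49.1% and 40.1%), and after thinning the shares were 58.9%, 54.6%, 49.1% and 41.5%.

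**Figure D2:**
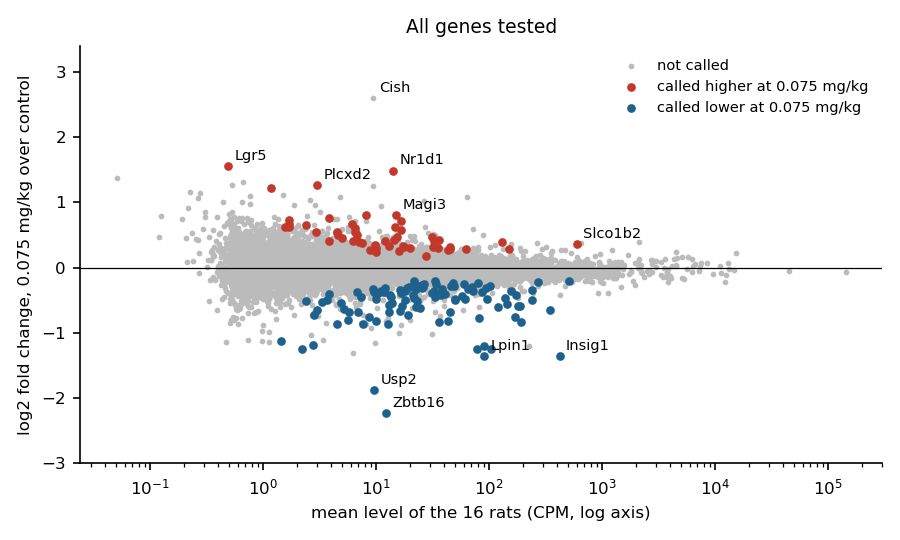
Log2 fold change of the livers dosed at 0.075 mg/kg over controls against mean level in CPM (log axis) for 11930 genes; coloured points are the 52 genes called higher and the 111 called lower. Most called genes lie within 1 log2 unit of zero, and lower calls dominate among the more abundant transcripts.

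Clock genes included calls in both directions. Of 22 clock genes tested, 2 were called higher in dosed livers and 4 lower, and 14 had an unadjusted p under 0.05. Over all genes tested, 0.436% were called higher, 0.93% were called lower and 13.4% had an unadjusted p under 0.05. The clock list was written with earlier results of these data known, so its counts are no independent result. The median log2 fold change over the 22 was -0.192, beside 0.002 over all genes. Repressor genes moved in opposite directions, with Nr1d1 and Nr1d2 higher and Cry1 lower. Thinned to equal depth, 2 were higher and 3 lower. With the library total as a covariate, and also without the 5 deepest dosed rats, none was higher and 2 were lower.

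Usp2 encodes a deubiquitinase that acts on clock proteins and cycles in liver. It had the smallest p of all genes, with 3.44, 3.98 and 5.46 CPM (lowest, median, highest) in dosed livers, against 9.70, 14.9 and 22.3 CPM in control livers. The highest dosed rat lay well below the lowest control. The log2 fold change was -1.88 ± 0.19 (SE; edgeR adjusted p = 2.02e-07; mean 4.199 ± 0.81 CPM in dosed and 15.2 ± 4.24 CPM in control livers, SD, n = 8 each). In the 3 dosed rats within the control depth Usp2 was 3.57 to 5.46 CPM. Cry1, which encodes a repressor of the clock activators, had 6.85, 9.42 and 10.9 CPM in dosed livers, against 12.3, 16.1 and 20.1 CPM in control livers. These groups did not overlap either, and the log2 fold change was -0.87 ± 0.12 (adjusted p = 0.00011).

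Nr1d1 and Nr1d2 encode the REV-ERB receptors, which repress Arntl. Nr1d1 had 12.3, 20.4 and 31.8 CPM in dosed livers, against 4.72, 6.76 and 15.4 CPM in control livers. Of the controls, 1 rat reached into the dosed range, and the next highest was at 8.94 CPM. Nr1d1 was higher by 1.48 ± 0.34 on the log2 scale (adjusted p = 0.0198). Nr1d2 had 12.7, 21.2 and 27.1 CPM in dosed livers, against 8.94, 12.4 and 17.8 CPM in control livers, a log2 difference of 0.72 ± 0.15 (adjusted p = 0.00733). Csnk1d, a kinase of the PER proteins, was 68.6 to 79.7 CPM in dosed and 80.4 to 98.9 CPM in control livers, without overlap but with a log2 fold change of only -0.24 ± 0.05 (adjusted p = 0.00549).

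Among members that were not called, Per1 had a log2 fold change of -1.15 ± 0.36 (adjusted p = 0.107) and Per2 of -0.80 ± 0.24 (adjusted p = 0.0892). Per2 spanned 9.45 to 22.6 CPM in dosed and 15.6 to 37.8 CPM in control livers. The activators were not called, with log2 fold changes of -0.14 ± 0.05 for Arntl, 0.06 ± 0.07 for Clock and -0.06 ± 0.10 for Npas2 (adjusted p of at least 0.170). Dbp, a direct output gene of the activators, was at 1.46 to 3.37 CPM in dosed and 1.32 to 3.32 CPM in control livers.

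**Figure D3:**
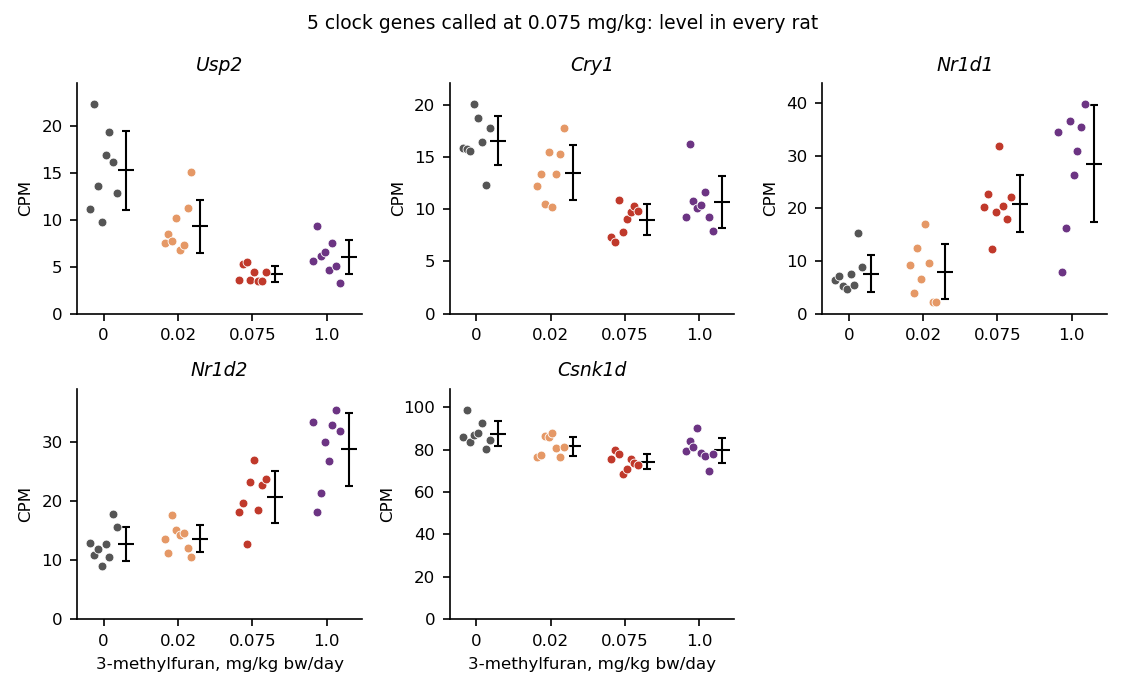
Level in CPM of 5 of the 6 called clock genes in every rat of the 3-methylfuran experiment, by dose in mg/kg body weight per day; points are rats, bars mean and SD (n = 8 each). At 0.075 mg/kg Usp2 and Cry1 sit below every control rat, and Nr1d1 and Nr1d2 are higher, with 12.3 to 31.8 CPM of Nr1d1 against 4.72 to 15.4 CPM in controls.

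Promoter sequences were available for 120 of the 163 called genes (RefSeq windows of 300 bases on GRCr8, 250 bases before to 50 after the start). The clock activators bind the E-box CACGTG, and REV-ERB receptors bind elements with the half-site AGGTCA. The E-box, which reads the same on both strands, was in 12 of 84 windows of genes called lower (14.3%), in 1 of 36 windows of genes called higher (2.78%) and in 6.65% of all 27457 promoter windows. AGGTCA, searched on both strands, was in 17.9% of the windows of lower genes, 19.4% of those of higher genes and 15.7% of all. The D-box TTATGTAA was in none of the 120 windows and in 0.881% of all. The motifs do not overlap in their letters. These counts describe the letters in the windows and say nothing of binding. The 27457 windows were not limited to the genes tested here and were not matched for base composition. Of the 6 called clock genes, 3 had a window (Usp2, Nr1d1 and Nr1d2). None of these windows holds the E-box, and that of Nr1d1 holds none of the motifs searched. The windows of Usp2 and Nr1d2 are shown because these clock genes differed in opposite directions and each holds AGGTCA, and those of Il6r and Insig1 because these lower genes, described further on, hold the E-box. Capitals mark the motif.
Usp2, GRCr8 chr8:53310620-53310919, plus strand: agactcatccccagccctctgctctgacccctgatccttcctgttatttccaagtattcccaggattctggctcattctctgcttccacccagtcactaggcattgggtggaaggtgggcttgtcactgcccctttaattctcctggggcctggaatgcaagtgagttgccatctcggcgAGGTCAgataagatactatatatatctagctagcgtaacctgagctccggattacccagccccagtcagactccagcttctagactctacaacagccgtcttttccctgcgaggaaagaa
Nr1d2, GRCr8 chr15:9954784-9955083, plus strand: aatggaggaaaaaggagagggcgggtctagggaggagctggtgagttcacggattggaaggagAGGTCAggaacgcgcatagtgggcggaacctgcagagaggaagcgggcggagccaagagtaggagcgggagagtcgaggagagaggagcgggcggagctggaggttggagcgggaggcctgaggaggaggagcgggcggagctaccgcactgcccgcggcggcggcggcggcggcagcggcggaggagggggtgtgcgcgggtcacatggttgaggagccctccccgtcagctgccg
Il6r, GRCr8 chr2:177645160-177645459, minus strand: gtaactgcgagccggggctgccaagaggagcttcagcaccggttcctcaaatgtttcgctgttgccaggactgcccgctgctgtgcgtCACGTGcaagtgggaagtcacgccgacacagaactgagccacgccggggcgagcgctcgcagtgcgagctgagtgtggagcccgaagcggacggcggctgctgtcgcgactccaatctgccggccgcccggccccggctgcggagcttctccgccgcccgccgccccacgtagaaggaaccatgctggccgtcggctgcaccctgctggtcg
Insig1, GRCr8 chr4:8057720-8058019, minus strand: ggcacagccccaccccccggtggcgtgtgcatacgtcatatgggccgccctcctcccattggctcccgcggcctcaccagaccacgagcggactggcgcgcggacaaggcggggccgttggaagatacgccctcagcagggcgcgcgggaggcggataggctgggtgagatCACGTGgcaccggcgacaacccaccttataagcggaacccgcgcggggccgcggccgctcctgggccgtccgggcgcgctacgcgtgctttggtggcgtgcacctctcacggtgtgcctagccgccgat

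Among genes known to respond to glucocorticoid hormone, every call was lower. Of 33 tested, 6 were called lower and none higher, beside 0.93% and 0.436% of all genes. Among the 33, 10 had a log2 fold change above zero. The median was -0.262, beside 0.002 over all genes. The list was written with earlier results of these data known, so its counts are no independent result. At equal depth the count was again 6 lower, with the 16 rats fitted alone it was 3, with the library total as a covariate 2, and without the 5 deepest dosed rats 0. Lpin1, which encodes the phosphatidate phosphatase of triglyceride synthesis, had 38.7, 51.6 and 62.1 CPM in dosed livers, against 83.7, 123 and 201 CPM in control livers. Every dosed rat was below every control (log2 fold change -1.35 ± 0.21, adjusted p = 0.000593). Il6r, the interleukin-6 receptor, also separated the groups, with 51.1, 59.4 and 69.9 CPM in dosed and 71.2, 105 and 130 CPM in control livers (log2 fold change -0.77 ± 0.11, adjusted p = 0.000183). Mfsd2a, a fasting-induced transporter of lysophospholipids, had 25.4, 58.5 and 102 CPM in dosed and 105, 140 and 223 CPM in control livers (log2 fold change -1.25 ± 0.24, adjusted p = 0.00518). The arrestin-domain gene Arrdc2 was lower by a log2 fold change of -0.87 ± 0.15 (adjusted p = 0.000788).

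Zbtb16, a zinc-finger repressor induced by glucocorticoids, had the largest fall of the named genes but rested on part of the controls. Its levels were 1.94, 3.74 and 11.2 CPM in dosed livers, against 2.98, 20.7 and 41.97 CPM in control livers. Of the controls, 5 rats lay at 17.5 CPM or more and 3 at 5.91 CPM or less, inside the dosed range. The log2 fold change was -2.24 ± 0.50 (adjusted p = 0.0158), and 8 of 13 alternative settings called it (adjusted p up to 0.598 over all of them). Of the list's other members, a pair of textbook glucocorticoid targets were not called. Fkbp5, a glucocorticoid receptor co-chaperone, had a log2 fold change of -0.04 ± 0.17 (17.9 CPM in dosed and 18.4 CPM in control livers). Tsc22d3, the leucine zipper GILZ, had -0.69 ± 0.26 (adjusted p = 0.221).

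Genes of hepatic glucose handling were lower as well, in 5 of 23 tested, with none higher and a median log2 fold change of -0.077. Over all genes 0.93% were called lower, and this list too was written with earlier results of these data known. The count stayed at 5 at equal depth, and was 3 with the 16 rats alone, 1 with the library total as a covariate and 0 without the 5 deepest dosed rats. Ppp1r3b, which targets protein phosphatase 1 to glycogen, was 184 to 322 CPM in dosed and 312 to 501 CPM in control livers (log2 fold change -0.65 ± 0.11, adjusted p = 0.00154). Its relative Ppp1r3c had a log2 fold change of -0.59 (adjusted p = 0.03). Pfkfb1, the liver bifunctional enzyme of fructose 2,6-bisphosphate, had -0.49 (adjusted p = 0.0212). Foxo1, which drives gluconeogenic genes, was lower by a log2 fold change of -0.35 ± 0.07 (adjusted p = 0.00766). The gluconeogenic enzymes themselves were not called, with log2 fold changes of -0.27 ± 0.20 for Pck1 and -0.22 ± 0.32 for G6pc.

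In lipid metabolism the calls were single genes. In the cholesterol list 2 of 25 genes were called, both lower, beside 0.93% of all genes, and the list's median was -0.007. Insig1, the sterol and insulin-regulated anchor of SREBP processing, had 105, 211 and 401 CPM in dosed livers, against 199, 678 and 909 CPM in control livers (log2 fold change -1.36 ± 0.29, adjusted p = 0.0123). In fatty acid synthesis, Lpin1 was the single call of 20. Fasn, the fatty acid synthase, was 984 ± 746 CPM in dosed and 1297 ± 921 CPM in control livers (SD, n = 8 each; adjusted p = 0.736). Angptl8, a feeding- and insulin-induced regulator of lipoprotein lipase, had 12.8, 46.5 and 74.6 CPM in dosed livers, against 54.3, 112 and 188 CPM in control livers (log2 fold change -1.25 ± 0.28, adjusted p = 0.0196). Its call was lost without dosed rat MB549L or without control rat MC512L.

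**Figure D4:**
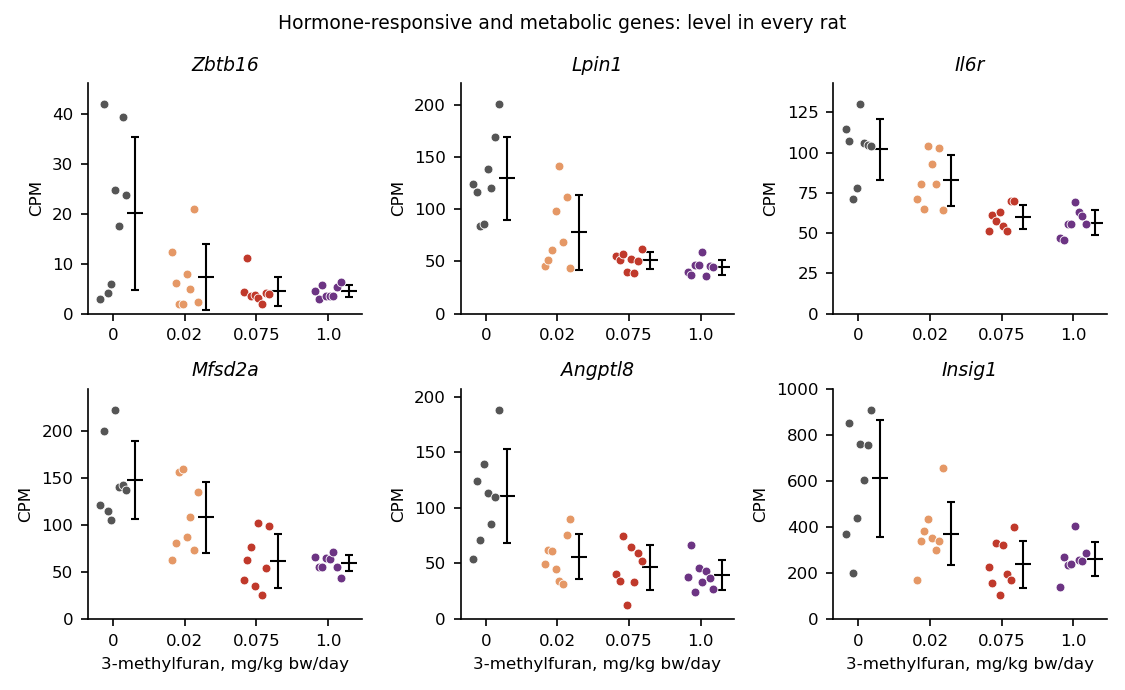
Level in CPM of 6 hormone-responsive and metabolic genes in every rat of the 3-methylfuran experiment, by dose in mg/kg body weight per day; points are rats, bars mean and SD (n = 8 each). Lpin1, Il6r and Mfsd2a at 0.075 mg/kg lie below every control, while for Zbtb16 3 control rats sit at 5.91 CPM or less, among the dosed rats.

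Of 31 PPAR alpha targets, Cidec alone was called, beside 1.37% of all genes. Cidec encodes a lipid droplet protein and was 56.3 to 72.7 CPM in dosed and 69.2 to 92.1 CPM in control livers (log2 fold change -0.35 ± 0.06, adjusted p = 0.00115). It also leads the adipocyte marker sum, which was 72.6 to 88.7 CPM in dosed and 86.6 to 109 CPM in control livers (exact permutation p = 0.000466, adjusted p = 0.00885). Of the 5 adipocyte markers tested, Cidec was the single call. Adipoq, the defining adipocyte hormone, was at 0 in 6 of 8 dosed and 5 of 8 control livers. The bile duct marker sum was 340 to 494 CPM in dosed and 306 to 376 CPM in control livers (exact permutation p = 0.00637, adjusted p = 0.0403). None of its 9 tested genes was called. Most of that sum was Krt8 and Krt18, which hepatocytes also make, and Krt19 was 0.274 to 1.48 CPM in dosed and 0.389 to 1.49 CPM in control livers. The part of these sums in other results was not tested.

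Nuclear receptors and transporters of the hepatocyte gave a few calls. Nr1i2 encodes the xenobiotic receptor PXR and had 120, 141 and 150 CPM in dosed livers, against 156, 172 and 217 CPM in control livers. The groups did not overlap, though the difference was small (log2 fold change -0.36 ± 0.06, adjusted p = 0.000813). Slco1b2, the uptake carrier for bile acids and drugs, was the single edgeR call of 25 bile acid genes, at 580 to 759 CPM in dosed and 436 to 605 CPM in control livers (log2 fold change 0.36 ± 0.08, adjusted p = 0.0155). DESeq2 also called Abcc2 higher and Nr0b2, the bile acid-induced repressor SHP, lower. By edgeR Nr0b2 had a log2 fold change of -1.02 ± 0.29 (adjusted p = 0.0712). Of 18 iron genes, Smad7, an inhibitor of the BMP signal that sets hepcidin, was called lower (log2 fold change -0.58 ± 0.13, adjusted p = 0.0127). Of 18 pericentral genes, Lgr5, a receptor for R-spondins, was called higher from a low level (0.509 to 1.01 CPM in dosed and 0.0721 to 0.464 CPM in control livers, log2 fold change 1.55 ± 0.32, adjusted p = 0.00724). A single call in a list of this size is near the 1.37% called over all genes and is read as a result on that gene, not on its list.

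Magi3, a junction scaffold protein, was called higher. It had 14.8, 19.4 and 22.7 CPM in dosed livers, against 9.50, 10.6 and 13.0 CPM in control livers, without overlap (log2 fold change 0.80 ± 0.09, adjusted p = 8.23e-07). Plcxd2, a phospholipase-domain gene, had 3.18, 4.06 and 5.72 CPM in dosed and 0.968, 1.57 and 2.98 CPM in control livers (log2 fold change 1.265 ± 0.18, adjusted p = 0.00011). Further rises of the named genes were Wdr19 of the ciliary transport machinery (0.65), Mcc (0.66), the ephrin receptor Epha4 (1.22), Fign (0.76), Mbnl3 (0.72), Cdc25c (0.62), Zfp385b (0.62), Zfp606 (0.62) and Hnf4g (0.60), as log2 fold changes. Of these, Epha4, Fign, Mbnl3 and Zfp606 were called in 5 or fewer of the 16 fits that left out 1 rat, and Cdc25c and Hnf4g in 8 and 7. Further falls were Klf13 (-1.25), Pdxp (-1.13), Mcm10 (-0.87), Cdc42ep4 (-0.68), Hs6st1 (-0.61) and the splicing factor Srsf4 (-0.48). Without control rat MC503L, Mcm10 was not called (adjusted p = 0.0549). Usp2, Magi3, Cry1 and Plcxd2 were the named genes called under all 13 alternative settings and in all 16 fits without 1 rat.

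No member was called by edgeR in the lists most tied to furan toxicity. None of 24 xenobiotic P450 genes, 25 NRF2 genes, 25 glutathione genes, 23 p53 targets, 26 ATF4 and unfolded protein response genes, 35 cell cycle genes, 17 heat shock genes, 36 interferon genes, 20 acute phase genes, 32 matrix genes, 20 immediate early genes or 8 oncofetal genes passed the test. At an unadjusted p under 0.05 these lists held 1, 1, 0, 4, 5, 3, 6, 1, 0, 2, 4 and 0 genes in that order. The lists do not hold every gene of their kind. The cell cycle genes Cdc25c (0.62, edgeR adjusted p = 0.0344) and Mcm10 (-0.87, adjusted p = 0.0164) were called but are outside the cell cycle list. Over all genes 1.37% were called and 13.4% had an unadjusted p under 0.05, so that no call in lists of 8 to 36 genes is near the share over all genes. DESeq2 called Abcc2 (also an NRF2 gene) and the p53 target Fas higher and Sesn2 and the heat shock gene Bag3 lower, and limma voom called Sesn2 lower, with no other call in these lists by either tool. Cyp2e1, the P450 that activates furan, averaged 2253 ± 485 CPM in dosed and 2195 ± 375 CPM in control livers (SD, n = 8 each; log2 fold change 0.04 ± 0.13, adjusted p = 0.938). The proliferation marker Mki67 had a log2 fold change of 0.18 ± 0.38, the transferase Gstp1 0.11 ± 0.58, the serine synthesis enzyme Phgdh 0.75 ± 0.51 and the collagen Col1a1 -0.16 ± 0.21 (adjusted p of at least 0.562). The heat shock genes had a median of -0.18, with 1 of 17 above zero. Other lists leaned the other way, with a median of 0.154 and 27 of 35 above zero for cell cycle genes and 0.118 and 30 of 36 for interferon genes. Over all genes tested, the share above zero was 57.9% in the lowest bin by level and 40.1% in the highest. The lists were not matched for level. Among heat shock genes Bag3 was nearest to a call (-0.32 ± 0.09, adjusted p = 0.0623). Sesn2, a stress-induced sestrin, had -0.43 ± 0.12 (adjusted p = 0.0623), and Abcc2, the canalicular export pump, had 0.38 ± 0.11 (adjusted p = 0.0679).

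The remaining pathway lists held no call by edgeR, DESeq2 or limma voom. They were 70 ribosomal protein genes (median log2 fold change -0.025), 74 nuclear genes of oxidative phosphorylation (-0.064), 34 proteasome genes (0.003), 21 mitochondrial genes (0.063), 17 periportal genes (-0.075) and 28 genes of the growth hormone axis and male-biased expression (0.077). At an unadjusted p under 0.05 they held 2, 6, 0, 0, 2 and 2 genes in that order, beside 13.4% of all genes. No call in lists of this size is again near the 1.37% over all genes. The members nearest to a call were Rpl30 (log2 fold change 0.19), Ndufa7 (-0.16), Psmb3 (-0.10), Mt-co1 (0.22), Sdsl (-0.21) and Cish, whose levels stood apart. Cish, a feedback inhibitor of growth hormone signalling, had 0.564, 16.4 and 40.6 CPM in dosed livers, against 1.499, 2.33 and 4.98 CPM in control livers. In 5 dosed rats it was at 16.2 CPM or more, above every control, and in 3 it was at 0.742 CPM or less, below every control (log2 fold change 2.60 ± 1.00, adjusted p = 0.221).

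At neighbouring doses the 3-methylfuran rats gave few or many calls. Against the rats at 0.02 mg/kg, the rats at 0.075 mg/kg differed in 4 genes (0.0335%; 684 at an unadjusted p under 0.05). Usp2 (log2 difference -1.16 ± 0.19), Nr1i2 (-0.36 ± 0.06) and Cdc42ep3 (-0.64 ± 0.12) were lower and Magi3 (0.49 ± 0.09) was higher, and Cdc42ep3 was the one not called against controls. Usp2 averaged 15.2 CPM in controls, 9.27 CPM at 0.02, 4.199 CPM at 0.075 and 6.02 CPM at 1.0 mg/kg. Magi3 averaged 10.99, 13.6, 19.1 and 18.7 CPM in the same order. The rats at 0.02 mg/kg differed from controls in 4 genes (0.0335%; 846 at an unadjusted p under 0.05), which were Arhgap24, Homer1, Ppan and Hs6st1. Comparisons against the same controls share those rats. The comparison of 1.0 with 0.02 mg/kg shares none with that of 0.075 with controls, and called 4875 genes (40.9%). Of the 163 genes, 104 (63.8%) were called in it, 97 in the same direction and 7 in the opposite one, a share not matched for level.

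Rats given furan at 0.12 mg/kg differed from their own controls in 245 of 11885 genes (2.06%; 1693 at an unadjusted p under 0.05). Of the 163 genes, 22 were called with furan too, 2 in the same direction (Nr1d1 and Nr1d2) and 20 in the opposite one. At an unadjusted p under 0.05 with furan, 17 of the 163 had the same sign and 56 the opposite sign. Compound, dose, library kit and set of rats all differed between the experiments, and the difference between compounds was not tested. Usp2 was 24.8, 35.0 and 55.3 CPM with furan, against 5.06, 20.2 and 26.5 CPM in furan controls (log2 fold change 0.97 ± 0.24, adjusted p = 0.0234), where 3-methylfuran gave -1.88. Lpin1 was 336, 394 and 625 CPM with furan, against 65.9, 115 and 282 CPM in furan controls (1.47 ± 0.32, adjusted p = 0.0103), where 3-methylfuran gave -1.35. Zbtb16 was 7.91, 60.2 and 69.6 CPM with furan, against 4.30, 5.81 and 12.1 CPM in furan controls (2.79 ± 0.54, adjusted p = 0.00354), where 3-methylfuran gave -2.24.

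The other genes called lower with 3-methylfuran and higher with furan, with the 3-methylfuran log2 fold change first, were Klf13 (-1.25 and 1.08), a locus without a gene symbol (-1.19 and 1.405), Ankrd33b (-0.80 and 1.07), Il6r (-0.77 and 1.06), Sdc4 (-0.59 and 0.62), Ccdc6 (-0.53 and 0.75), Pfkfb1 (-0.49 and 1.00), Srsf4 (-0.48 and 0.48), Pxmp4 (-0.45 and 0.83), Nr1i2 (-0.36 and 0.60), Foxo1 (-0.35 and 0.81), Cobll1 (-0.31 and 0.26), Pcyt1a (-0.29 and 0.53) and Csnk1d (-0.24 and 0.26). Zfp608 (0.81 and -0.84), Nedd9 (0.46 and -0.80) and Notch2 (0.28 and -0.42) were called higher with 3-methylfuran and lower with furan. Nr1d1 was 3.21, 8.65 and 24.0 CPM with furan, against 2.42, 3.24 and 7.69 CPM in furan controls (log2 fold change 1.40 ± 0.34, adjusted p = 0.0235), so that both compounds gave higher Nr1d1. Fkbp5 was 57.5 ± 36.8 CPM with furan and 13.1 ± 1.55 CPM in furan controls (SD, n = 8 each; log2 fold change 2.13 ± 0.36, adjusted p = 0.00107), where 3-methylfuran gave -0.04.

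**Figure D5:**
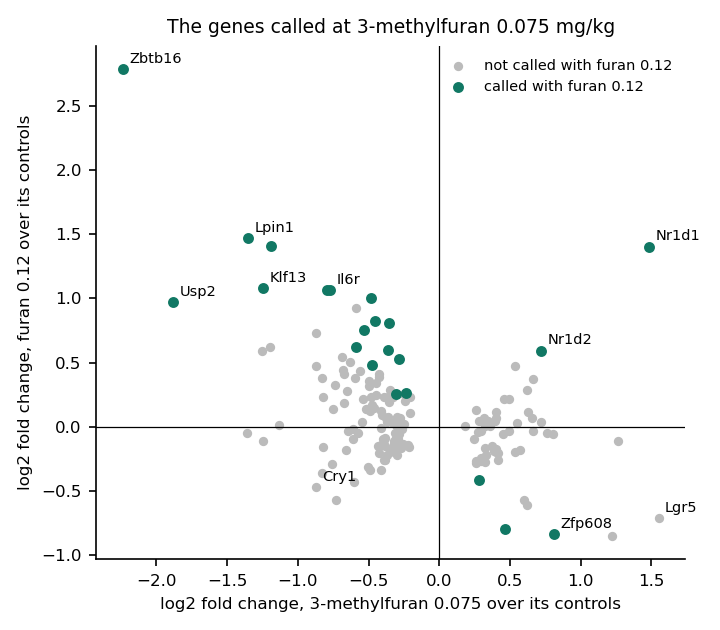
Log2 fold change at furan 0.12 mg/kg over furan controls against log2 fold change at 3-methylfuran 0.075 mg/kg over its controls, for the 163 genes called with 3-methylfuran; green points are the 22 also called with furan. Of the green points 20 lie in the quadrants of opposite sign, and Nr1d1 and Nr1d2 lie in that of higher with both.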

How the data were processed

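Liver mRNA of the 3-methylfuran rats was prepared with the TruSeq Stranded mRNA protocol and that of the furan rats with a later stranded kit, per the labels' protocols. Reads were mapped to Rnor 6.0, and DESeq2 1.26.0, STAR 2.7.1a and featureCounts 2.0.0 were used, per the submitters' processing notes. For the strand setting and the annotation release nothing was stated. Raw read counts per gene and run were deposited. The authors' deposited table also gives for each dose a linear fold and an adjusted p-value per gene. That fold can lie nearer 1 than the ratio of mean levels (for Zbtb16 0.982, beside means of 4.43 CPM in dosed and 20.04 CPM in control livers), and it was used for direction alone. The 3 runs of a 3-methylfuran rat (2 for furan) were summed, since runs are technical (chi-square per degree of freedom at most 1.07 between runs of a rat, and at least 10.33 between rats).

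Counts were fitted in R 4.3.3 with edgeR 4.0.16 (filterByExpr with a minimum count of 10, TMM, robust quasi-likelihood F test), with 1 coefficient per group over the 32 3-methylfuran rats and a separate fit for the 38 furan rats. The standard error is the log2 fold change divided by the square root of F. Levels are CPM scaled by TMM. A gene with p adjusted by Benjamini-Hochberg under 0.05 over all genes tested is called. Library and marker sums were tested by exact permutation over rats, two-sided, and adjusted over 19 measures. The fitting steps were tested on simulated data. Alternatives used DESeq2 1.42.0 and limma 3.58.1 voom, other scalings and filters, thinning, and leaving out rats. The labels do not say whether rats were housed or sampled together.

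Members and gene lists were chosen with earlier results of these data known. Of 736 listed symbols, 88 had no counts. Called genes with a proper symbol, at least 1 CPM in the higher group and all 8 dosed rats on one side of the control mean were named if among the 12 largest rises, the 12 largest falls or the 8 smallest p. Genes called also against 0.02 mg/kg, up to 3 called members per list (the nearest member where none was called) and Cyp2e1, Gstp1, Phgdh, Mki67, Fasn, Zbtb16 and Col1a1 were also named. Genes outside this rule, such as Nr1d2, Per1, Per2, Fkbp5, Tsc22d3, Ppp1r3c, Pfkfb1, Pck1, Cdc42ep3, Nr0b2 and the genes called with both compounds, were chosen after their values were seen. Some genes of the lists are not reported here. Symbols came from the deposited table. Promoters are RefSeq sequences on GRCr8, 1 window a gene.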

Additional observations from a re-analysis of the deposited data

Results flagged for a closer look

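Of 124 groups of 8 rats examined for a rat standing apart (Dixon's test), 10 had one, where chance gives about 1 in 20. Among dosed rats the high values were Foxo1 at 18.5 CPM (next 16.4), Zbtb16 at 11.2 CPM (next 4.24) and Gbp5 at 7.18 CPM (next 4.62). Rat MB542L held the first 2 of these and rat MB541L the third. Dosed rat MB551L was lowest for Psmb3 at 58.5 CPM (next 66.6) and for Afp at 19.7 CPM (next 22.3). Among controls the high values were Foxo1 at 26.3 CPM (next 21.8) in rat MC503L and Nr1d1 at 15.4 CPM (next 8.94) in rat MC511L. The low control values were Smad7 at 10.4 CPM (next 15.1), Adamtsl2 at 6.75 CPM (next 8.68) and, in rat MC502L, the share of counts in the 10 most abundant genes at 26.9% (next 28.1%).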

How the results depend on the processing

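The 163 called genes all kept their direction under 9 of the 13 alternative settings run and in all 16 fits without 1 rat. In the other 4 settings at least 161 did. All of these fits reuse rats in which the 163 were called, so a kept direction was likely from the start. The counts (163, with 52 higher and 111 lower) moved. Without scaling factors there were 79 higher and 67 lower, without a filter 106 (70 lower), with the 16 rats alone 95 (32 higher, 63 lower) and with DESeq2 283 (92 higher, 191 lower). Without the 5 deepest dosed rats, which leaves 3, there were 7 (3 higher, 4 lower), with the library total as a covariate 20 (5 higher, 15 lower), and with run 1 alone 31 higher. Fits without 1 rat gave 103 to 193 calls (28 to 61 higher, 75 to 132 lower), with 101 to 146 of the 163 among them. The lowest counts came without dosed rat MB541L (103) and dosed rat MB549L (106), and without control rat MC507L there were 32 higher. Against 0.02 mg/kg the 4 calls were 2 with the 16 rats alone, 12 with DESeq2, 2 at equal depth and 3 to 5 without 1 rat. The causes were not tested. No paired analysis was possible because the groups share no rat number. Since depth and dose group moved together, the covariate fit cannot tell them apart.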

Other observations

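Some called genes lay outside every list and are given as values, chosen after they were seen. Transcription regulators among the falls were Cebpa (log2 fold change -0.49), Klf15 (-0.50), Ppard (-0.82), Hes1 (-0.73), Mnt (-0.76), Etv6 (-0.82) and Tead1 (-0.63). Receptor genes among the falls were Egfr (-0.75), with 95.2, 131 and 148 CPM in dosed and 115, 215 and 279 CPM in control livers, and Epha2 (-0.83). G0s2, an inhibitor of triglyceride lipase, was at 71.3 to 196 CPM in dosed and 179 to 301 CPM in control livers (-0.83). Chka and Pcyt1a, enzymes of phosphatidylcholine synthesis, were at -0.60 and -0.29. Ppan, Rrs1 and Cd3eap, with roles in ribosome production, were at -0.59, -0.55 and -0.65. Among the rises, Cep162, Tmem67 and Ccdc66, proteins of cilia or centrioles, were at 0.49, 0.40 and 0.45, with Ccdc66 at 5.25 to 6.70 CPM in dosed and 3.65 to 4.83 CPM in control livers.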
